A study of Mus musculus with 4 samples.

Results

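The genes described here are 47 macrophage, antigen presentation and inflammatory genes measured in RNA of whole mouse islets, which does not assign them to a cell type. They were chosen by symbol from a fixed list and found among the 56748 genes of the count table. They comprised 14 macrophage markers, 8 antigen presentation genes (4 of class II and 4 of class I) and 25 inducible inflammatory genes, the last being cytokines and chemokines, the IL-1 receptor and its antagonist, NF-kB subunits, NF-kB feedback and target genes, interferon genes and Socs3. Poly(A) RNA was sequenced from primary islets of male C57BL/6J mice aged 6 to 8 weeks, and all islets received cycloheximide, a blocker of translation, at 100 ug/mL for the last 15 min. High-glucose islets were kept at 25 mM glucose for 2 h and low-glucose islets at 2.5 mM for 2 h, both after a period without glucose, with 2 libraries each (replicates 1 and 2). No transgene or mutation is named for either group.

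Islets hold a small resident population of macrophages, which lie along capillaries and among endocrine cells and present antigen through class II molecules. NF-kB is a family of dimeric transcription factors that IL-1, TNF and microbial products release from inhibitors of the IkB class, and its targets include chemokines, adhesion molecules and its own inhibitors. Interferons act through JAK-STAT signalling and IRF factors, and raise class I genes and antiviral genes of the Ifit family. Several of these inducible genes are made by endocrine, endothelial and stromal cells as well as by macrophages.

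Total counts ran from 17279505 to 19136068 per library, and 15665 genes passed the filter on low counts, among them 46 of the 47 members. High-glucose replicate 2 stood apart. Its log2 CPM correlated with those of the other libraries at r of 0.939 to 0.960 across genes, against 0.967 to 0.981 among the other 3. Summed islet endocrine markers stood at 119037 and 254075 CPM in high-glucose replicates 1 and 2, against 116583 and 152720 CPM in low-glucose replicates 1 and 2. CPM, each count divided by the library's total in units of 1e+06 reads, was scaled by TMM factors throughout.

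Macrophage transcripts were detected in every library at low levels. Without C1qa, the other 13 markers summed to 51.8 and 86.5 CPM in high-glucose replicates 1 and 2, against 57.9 and 63.1 CPM in low-glucose replicates 1 and 2. Per 1e+06 reads, the 14 markers took 109 reads in high-glucose replicate 1 (95% Wilson interval 104 to 114) and 126 in high-glucose replicate 2 (121 to 131), against 109 (104 to 114) and 103 (98.5 to 108) in low-glucose replicates 1 and 2. These intervals cover counting error only. In bulk RNA, fewer macrophages and less RNA per macrophage cannot be told apart.

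The defining markers were not equally present. Per kilobase, averaged over the 4 libraries, Lyz2 (lysozyme) was at 11.1 CPM per kb, Cd68 (a lysosomal glycoprotein) at 9.17, Fcer1g (a signalling chain of Fc receptors) at 5.67, C1qb at 5.06 and Cd14 (the lipopolysaccharide co-receptor) at 4.82. Adgre1, which encodes F4/80, was at 1.13 CPM per kb and Csf1r, the receptor for macrophage colony-stimulating factor, at 0.834. Ptprc (CD45) reached 0.128 CPM per kb and Itgam (CD11b) 0.0705 CPM per kb. Itgam, with 5 and 3 counts in high-glucose replicates 1 and 2 against 13 and 5 in low-glucose replicates 1 and 2, was the member left out of the test.

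T cells and neutrophils were nearly absent by their markers. The 7 T cell markers summed to 0.505 and 0.790 CPM in high-glucose libraries, against 0.447 and 0.322 CPM in low-glucose libraries, with Cd3e and Cd3d at 0 in all 4. The 6 neutrophil markers summed to 0.253 and 0.282 CPM at high glucose, against 0.558 and 0.215 CPM at low glucose, with Ly6g, Mpo and Retnlg at 0 in all 4.

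C1qa differed in level from its partners, although the 3 C1q genes encode chains of 1 complement protein. C1qa was at 50.7 and 49.3 CPM in high-glucose replicates 1 and 2, against 47.1 and 42.6 CPM in low-glucose replicates 1 and 2. C1qb was at 2.68 and 8.92 CPM at high glucose, against 3.96 and 6.45 CPM at low glucose, and C1qc at 3.33 and 5.64 CPM, against 3.69 and 4.84 CPM. C1qa was therefore nearly flat over libraries in which C1qb varied, and the ratio of C1qa to C1qb was 18.9 and 5.53 at high glucose, against 11.9 and 6.60 at low glucose. Per kilobase, C1qa averaged 45.6 CPM per kb, against 5.06 for C1qb and 2.27 for C1qc. No gene of the count table overlapped C1qa.

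**Figure D1:**
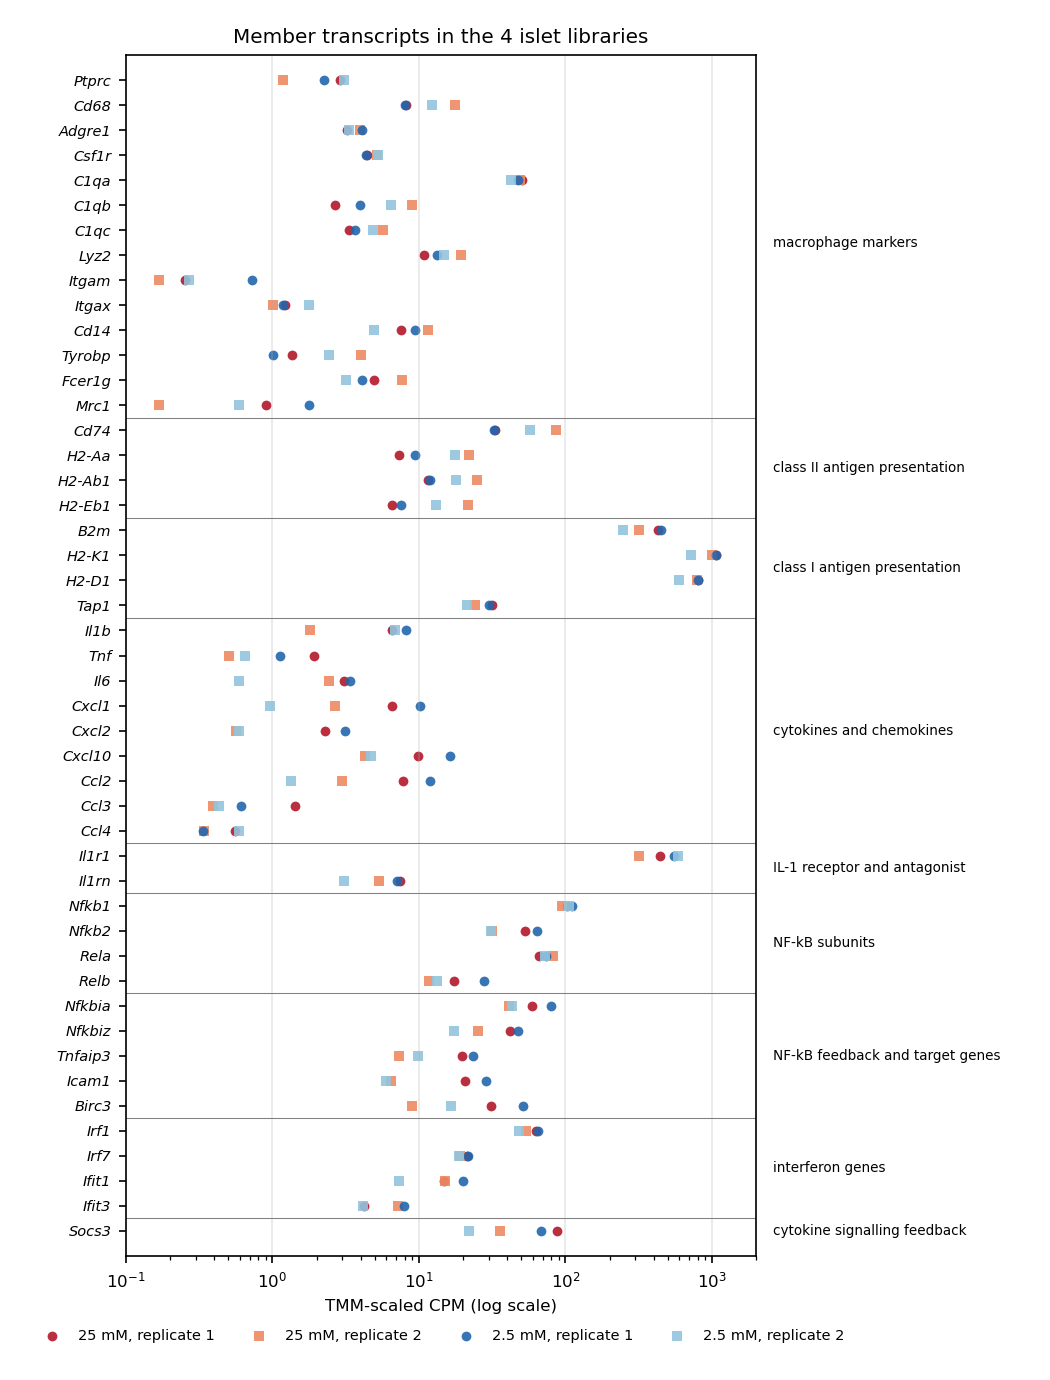
TMM-scaled CPM (log axis) of each of the 47 members in the 4 libraries, grouped by role. Red and orange points are high-glucose replicates 1 and 2, dark and light blue points low-glucose replicates 1 and 2. H2-K1, H2-D1, Il1r1 and B2m lie at the top of the range and Itgam at the bottom, and for most cytokines, chemokines and NF-kB targets the circles (replicate 1) lie right of the squares (replicate 2).

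The first comparison asked whether these genes differed between 25 and 2.5 mM glucose. None of the 46 tested members passed an adjusted p of 0.05 in the edgeR test, where 0 of 15665 genes (0.0%) did. At an unadjusted p under 0.05, 1643 of all genes (10.5%) were past the threshold, 6.67% of genes in the lower direction, and 1 member, Il1r1, which was lower. DESeq2 and limma-voom called 0 members at an adjusted p of 0.05, and DESeq2 called 184 of 26119 genes (0.704%). With the replicate number as a block, which assumes that same-numbered libraries share their mice, 1075 of 15665 genes (6.86%) passed, 290 higher (1.85%) and 785 lower (5.01%), and among the members only Il1b, which was lower. When the trend with gene length was removed as well, 8.71% of genes passed, and among the members Il1b and Birc3, both lower. Without high-glucose replicate 1, 3253 of 16290 genes (20.0%) passed the unblocked test, and 3 of the 47 members, all of which this fit kept, did (Cd74 higher, Il1b and Il1r1 lower). High-glucose replicate 2, which stood apart, was then the only library of its group, and the fit takes it to vary like the low-glucose pair. P-values here set a difference against the spread between these libraries. The blocked fit has 1 residual degree of freedom, so its p-values rest largely on spread estimated across genes.

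Macrophage markers showed no shared direction with glucose. Of 13 tested, 9 had a log2 fold change above 0 and 4 below, with a median of 0.10, against a median of -0.01 over all tested genes. Within the replicate numbers the median was 0.02 for replicate 1 and 0.24 for replicate 2, and without high-glucose replicate 2 it was -0.27. Removing the trend of each library with gene length gave a median of -0.10. C1qa and Fcer1g were the 2 markers with both high-glucose libraries above both low-glucose libraries, a pattern that 22.4% of all tested genes had.

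Fcer1g and Mrc1 had the largest log2 fold changes of this group. Fcer1g was at 4.95 and 7.62 CPM in high-glucose replicates 1 and 2, against 4.08 and 3.17 CPM in low-glucose replicates 1 and 2. The groups did not overlap, and the log2 fold change was 0.79 ± 0.40 (SE, n = 2 each, edgeR adjusted p = 0.508). Mrc1, the mannose receptor of tissue macrophages, was at 0.909 and 0.169 CPM, against 1.79 and 0.591 CPM. These ranges overlapped, with a log2 fold change of -1.11 ± 0.92 (edgeR adjusted p = 0.644). The remaining tested markers had log2 fold changes from -0.40 (Itgax, the integrin CD11c) to 0.64 (Tyrobp, the DAP12 adaptor).

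In the unblocked fit the 8 antigen presentation genes had log2 fold changes above 0, from 0.11 to 0.45, and none passed the test, while H2-Aa was at -0.02 with the block and B2m at -0.13 with the length trend removed. Their median was 0.21, but it was -0.02 within replicate 1 and 0.44 within replicate 2, and -0.08 without high-glucose replicate 2. All 8 had overlapping groups, as did 8097 of all 15665 tested genes.

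The class II genes encode the chains that show peptides to CD4+ T cells, and Cd74 the invariant chain that guides them. Cd74 was at 33.1 and 86.2 CPM in high-glucose replicates 1 and 2, against 32.6 and 56.9 CPM in low-glucose replicates 1 and 2. The difference lay in replicate 2, since the replicate 1 libraries were nearly equal, and the log2 fold change was 0.41 ± 0.47 (edgeR adjusted p = 0.740). H2-Eb1, a class II beta chain, was at 6.57 and 21.6 CPM, against 7.54 and 13.1 CPM. Its groups overlapped too, with a log2 fold change of 0.45 ± 0.55 (edgeR adjusted p = 0.768). H2-Aa and H2-Ab1, the alpha and beta chains of I-A, had log2 fold changes of 0.11 and 0.28.

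Of the class I genes, 3 had the highest levels per kilobase of all members and Tap1 did not. Per kilobase, B2m, the common light chain of class I, averaged 421 CPM per kb, H2-K1 328 and H2-D1 290, whereas Tap1, a subunit of the peptide transporter, averaged 4.89. H2-K1 was at 1069 and 1008 CPM in high-glucose replicates 1 and 2, against 1061 and 719 CPM in low-glucose replicates 1 and 2 (log2 fold change 0.22 ± 0.24, edgeR adjusted p = 0.733). H2-D1 was at 801 and 795 CPM, against 802 and 593 CPM (log2 fold change 0.19 ± 0.22, edgeR adjusted p = 0.749). In both genes 3 libraries were close and low-glucose replicate 2 was the lowest. H2-K1 and H2-D1 are close paralogs, so the split of reads between them is uncertain.

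Inducible inflammatory genes had a median log2 fold change of -0.13, with 9 above 0 and 16 below. The median was -0.28 within replicate 1 and 0.02 within replicate 2. Dropping a high-glucose library gave -0.58 (replicate 1 dropped) or 0.17 (replicate 2), and dropping a low-glucose library gave 0.46 (replicate 1) or -0.46 (replicate 2), so its direction turned with the library left out. Il1b, Il1r1 and Nfkb1 had both high-glucose libraries below both low-glucose libraries, as did 25.9% of all tested genes, and no inducible member had both above.

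Il1b, the proinflammatory cytokine IL-1 beta, lies on chromosome 2 from 129206490 to 129213059 on the minus strand in the coordinates of the count table. It was at 6.52 and 1.81 CPM in high-glucose replicates 1 and 2, against 8.15 and 6.88 CPM in low-glucose replicates 1 and 2. High-glucose replicate 2 was the low library, and the other 3 were close. The log2 fold change was -0.85 ± 0.58 without the block (edgeR adjusted p = 0.584) and -1.05 with it (edgeR adjusted p = 0.0455, or 0.00298 with the length trend removed as well). With high-glucose replicate 2 as the lone high-glucose library the unblocked value was -2.05 (edgeR adjusted p = 0.0168), in the setting where 20.0% of all genes passed. The pairs differed in size, at -0.32 for replicate 1 and -1.87 for replicate 2, and the blocked fit has 1 residual degree of freedom. Relative to the summed macrophage markers without C1qa, Il1b stood at 0.126 and 0.0209 at high glucose, against 0.141 and 0.109 at low glucose.

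Il1r1, the signalling receptor for IL-1, had the highest level per kilobase of the inducible members, at 74.6 CPM per kb, and Nfkbia followed at 34.6. Its CPM was 440 and 319 in high-glucose replicates 1 and 2, against 553 and 588 in low-glucose replicates 1 and 2. Both high-glucose libraries were lower, and the log2 fold change was -0.59 ± 0.23 (edgeR unadjusted p = 0.0382, adjusted p = 0.455, and adjusted p = 0.139 with the block). It was the only member past the thresholds of the study, an unadjusted p under 0.05 with an absolute log2 fold change over 0.58, which 1559 genes (9.95%) met, 6.33% of all genes in the lower direction. Il1r1 (chromosome 1, 40264240 to 40356417, plus strand) overlaps an unconfirmed same-strand gene model, Gm38070, at 230 and 54.4 CPM at high glucose, against 296 and 67.0 CPM at low glucose. How reads were split between the 2 genes is therefore uncertain. The log2 fold change of Il1r1 was -0.60 with the block, with limma-voom and without the low-count filter, and each of these passed both thresholds. Without high-glucose replicate 1 it was -0.83. The value was close to the threshold of the study, at -0.57 with DESeq2, -0.57 with RLE factors and -0.58 with library size only, none of which passed both thresholds. It was -0.42 with the length trend removed, -0.36 without high-glucose replicate 2, and -0.63 and -0.49 without low-glucose replicates 1 and 2, and none of these passed.

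Il1rn, which encodes the IL-1 receptor antagonist, was at 7.48 and 5.36 CPM at high glucose, against 7.09 and 3.06 CPM at low glucose. The groups overlapped, with a log2 fold change of 0.34 ± 0.47 (edgeR adjusted p = 0.797).

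Among the other cytokines and chemokines, Ccl3, which draws monocytes, had the largest fitted change. It was at 1.41 and 0.395 CPM in high-glucose replicates 1 and 2, against 0.614 and 0.430 CPM in low-glucose replicates 1 and 2. The groups overlapped, with a log2 fold change of 0.80 ± 0.80 (edgeR adjusted p = 0.705), and reads of Ccl3 and its relative Ccl4 may be shared. The other 7 ranged from -0.56 (Cxcl10, an interferon-inducible chemokine for T cells) to 0.47 (Tnf), none past the threshold. Tnf was at 1.92 and 0.508 CPM at high glucose, against 1.12 and 0.645 CPM at low glucose, and Il6 at 3.08 and 2.43 CPM, against 3.41 and 0.591 CPM. Both had overlapping groups, and Il6 was low in low-glucose replicate 2 alone.

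NF-kB subunits and their feedback and target genes had log2 fold changes from -0.75 to 0.04, none past the threshold without the block. Relb, a subunit of the noncanonical pathway, was at 17.3 and 11.6 CPM at high glucose, against 27.8 and 13.3 CPM at low glucose (log2 fold change -0.51 ± 0.39, edgeR adjusted p = 0.625). Nfkb2, its precursor partner p100, was at 53.1 and 31.4 CPM, against 64.4 and 30.9 CPM (log2 fold change -0.17 ± 0.40, edgeR adjusted p = 0.888). In both genes the replicate 1 libraries were higher than the replicate 2 libraries at either glucose level. Nfkb2 overlaps the opposite-strand genes Psd and 4833438C02Rik, and whether the counting used strand is not given in the sources used here. Rela, a subunit of the canonical dimer, was nearly level at 66.2 and 81.7 CPM at high glucose, against 74.0 and 73.0 CPM at low glucose. Nfkb1, its p105 and p50 partner, was at 102 and 94.3 CPM, against 110 and 105 CPM.

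Birc3, an inhibitor of apoptosis that NF-kB induces, was at 31.2 and 8.97 CPM in high-glucose replicates 1 and 2, against 51.2 and 16.7 CPM in low-glucose replicates 1 and 2. It was lower at high glucose within either replicate number, while the groups overlapped. The log2 fold change was -0.75 ± 0.66 (edgeR adjusted p = 0.666), and with the block -0.80 (edgeR adjusted p = 0.0597). Icam1, an adhesion molecule for leukocytes, was at 20.7 and 6.43 CPM, against 28.6 and 5.91 CPM, with overlapping groups (log2 fold change -0.35 ± 0.76, edgeR adjusted p = 0.880). Nfkbia (IkB alpha), Nfkbiz (IkB zeta) and Tnfaip3 (the ubiquitin-editing inhibitor A20) lay between -0.30 and 0.04.

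Interferon genes had log2 fold changes between -0.08 and 0.14. Ifit1 was at 14.9 and 15.0 CPM at high glucose, against 19.9 and 7.31 CPM at low glucose (log2 fold change 0.14 ± 0.44, edgeR adjusted p = 0.924). Ifit3 was at 4.24 and 7.17 CPM, against 7.93 and 4.14 CPM (log2 fold change -0.08 ± 0.46, edgeR adjusted p = 0.959). In both, the high-glucose values lay within the low-glucose range. Irf1 and Irf7, transcription factors of the interferon response, had log2 fold changes of 0.05 and -0.01, with Irf1 at 62.9 and 53.6 CPM at high glucose, against 64.9 and 47.8 CPM at low glucose. Socs3, the feedback inhibitor of JAK-STAT signalling, was at 87.5 and 36.0 CPM at high glucose, against 68.0 and 21.9 CPM at low glucose. It was higher at high glucose within either replicate number, with overlapping groups and a log2 fold change of 0.46 ± 0.58 (edgeR adjusted p = 0.772).

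**Figure D2:**
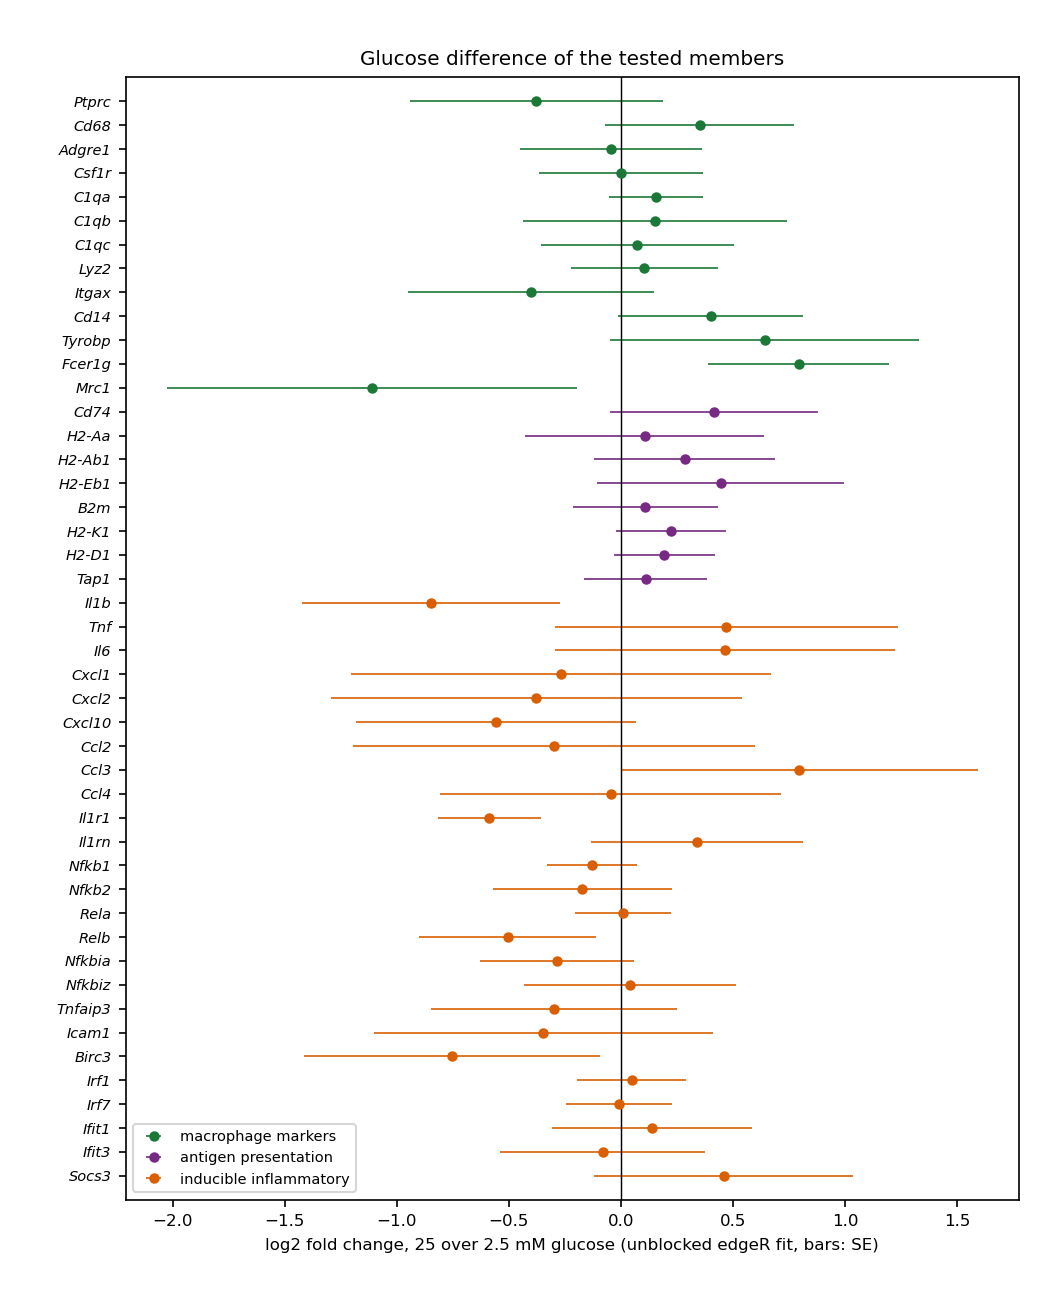
Log2 fold change at 25 over 2.5 mM glucose (horizontal axis, bars are SE, n = 2 libraries each, unblocked edgeR fit) of the 46 tested members. In this fit antigen presentation genes lie right of 0 with medians of 0.35 (class II) and 0.15 (class I), and inducible members spread to both sides of 0 with a median of -0.13.

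Further genes of these pathways came from lists drawn up beside the members. In the blocked fit, where 1.85% of all genes were higher and 5.01% lower, 1 of 16 other antigen presentation genes was higher and 0 lower, 1 of 38 other NF-kB genes was higher and 0 lower, and 0 of 39 other interferon and JAK-STAT genes and 0 of 24 tested other macrophage genes passed. Without the block, 27 of the 38 other NF-kB genes had a log2 fold change below 0 and 11 above, against 7956 below and 7709 above among all tested genes. The median of these NF-kB genes was -0.22, against -0.01 over all tested genes. At the thresholds of the study 3 of these NF-kB genes were lower and 0 higher, where 991 of all 15665 genes (6.33%) were lower and 568 higher. H2-DMa, a chain of the class II peptide loader, was at 5.15 and 6.43 CPM in high-glucose replicates 1 and 2, against 1.23 and 2.74 CPM in low-glucose replicates 1 and 2. Both high-glucose libraries were higher, with a log2 fold change of 1.61 in the blocked fit (edgeR adjusted p = 0.00273) and 1.54 ± 0.50 without the block (adjusted p = 0.449). Ier3, an early response gene, was at 38.0 and 24.0 CPM, against 24.7 and 10.6 CPM, and had a log2 fold change of 0.89 in the blocked fit (edgeR adjusted p = 0.0296) and 0.81 ± 0.42 without the block (adjusted p = 0.519).

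More members differed between the replicate numbers than between the glucose levels. This comparison was added after the data were seen, and it tests replicate 1 over replicate 2 in the edgeR fit that holds both glucose level and replicate number. That fit has 1 residual degree of freedom, so its small p-values rest largely on spread estimated across genes. No source states that equal numbers mark the same mice, so the ratios within each glucose level are given too. The test called 723 of 15665 genes (4.62%), 617 higher (3.94%) and 106 lower (0.677%) in replicate 1. Among the 46 tested members it called 14, of which 10 were higher and 4 lower in replicate 1. All 10 of the higher members were inducible inflammatory genes, while the 4 lower ones were 3 class II genes and C1qb.

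Cxcl1, Ccl2 and Cxcl2 had the highest log2 ratios among the members, followed by Icam1. Cxcl1 and Cxcl2, which attract neutrophils, and Ccl2, which attracts monocytes, are inducible chemokines. Cxcl1 was at 6.57 and 2.65 CPM in high-glucose replicates 1 and 2, against 10.2 and 0.967 CPM in low-glucose replicates 1 and 2. Both replicate 1 libraries were above both replicate 2 libraries, and the log2 ratio of replicate 1 over replicate 2 was 2.26 ± 0.39 (edgeR adjusted p = 8.37e-07).

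Ccl2 was at 7.73 and 2.99 CPM at high glucose, against 11.9 and 1.34 CPM at low glucose, a log2 ratio of 2.20 ± 0.37 (edgeR adjusted p = 3.82e-07). Cxcl2 was at 2.27 and 0.564 CPM, against 3.13 and 0.591 CPM, a log2 ratio of 2.20 ± 0.55 (edgeR adjusted p = 0.00266). Cxcl10 was at 9.90 and 4.29 CPM, against 16.2 and 4.73 CPM, a log2 ratio of 1.49 ± 0.32 (edgeR adjusted p = 0.000234). For all 3, low-glucose replicate 1 was highest, high-glucose replicate 1 next and both replicate 2 libraries below, in an order that differed between the genes. The 9 cytokines and chemokines together stood at 40.0 and 16.0 CPM in high-glucose replicates 1 and 2, against 55.0 and 16.8 CPM in low-glucose replicates 1 and 2. Relative to the macrophage markers without C1qa, this was a ratio of 0.772 and 0.185 at high glucose, against 0.950 and 0.266 at low glucose.

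The bases upstream of 5 inducible genes are shown because most of these genes are textbook targets of NF-kB or interferon. All 5 hold a match, as do some members not shown, among them Il6 and Ifit3, while Icam1, Birc3 and Tnfaip3 lack one. They are the 250 bases before the RefSeq start site (build GRCm38.p6), 5′ to 3′ on the gene's strand. Capitals mark matches on either strand to the letters of a kB site, GGGA and TTCC with 2 bases of any kind between them, or to those of an interferon-stimulated response element, GAAA and GAAA with 2 bases of any kind between them. The windows are chr5:90890995-90891244 on the plus strand (Cxcl1), chr5:90903649-90903898 on the plus strand (Cxcl2), chr5:92348890-92349139 on the minus strand (Cxcl10), chr12:55492648-55492897 on the minus strand (Nfkbia) and chr19:34640639-34640888 on the plus strand (Ifit1).
Cxcl1: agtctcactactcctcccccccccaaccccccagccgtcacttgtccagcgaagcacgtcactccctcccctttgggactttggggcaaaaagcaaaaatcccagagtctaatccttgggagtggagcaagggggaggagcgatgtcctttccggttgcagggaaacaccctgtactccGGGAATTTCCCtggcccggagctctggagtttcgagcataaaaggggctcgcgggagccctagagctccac
Cxcl2: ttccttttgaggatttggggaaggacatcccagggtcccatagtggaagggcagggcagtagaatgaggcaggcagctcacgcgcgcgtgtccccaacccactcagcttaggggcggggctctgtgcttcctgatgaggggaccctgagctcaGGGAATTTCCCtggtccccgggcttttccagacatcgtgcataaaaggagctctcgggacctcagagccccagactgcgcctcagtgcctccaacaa
Cxcl10: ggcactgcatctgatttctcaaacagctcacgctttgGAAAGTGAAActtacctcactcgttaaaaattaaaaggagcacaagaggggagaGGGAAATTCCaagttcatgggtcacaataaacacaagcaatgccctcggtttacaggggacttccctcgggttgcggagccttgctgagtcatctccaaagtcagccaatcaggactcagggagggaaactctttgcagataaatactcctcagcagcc
Nfkbia: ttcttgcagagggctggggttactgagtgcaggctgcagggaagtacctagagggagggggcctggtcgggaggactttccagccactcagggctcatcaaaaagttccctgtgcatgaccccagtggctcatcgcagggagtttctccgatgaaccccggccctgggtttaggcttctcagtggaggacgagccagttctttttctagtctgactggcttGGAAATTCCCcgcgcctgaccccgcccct
Ifit1: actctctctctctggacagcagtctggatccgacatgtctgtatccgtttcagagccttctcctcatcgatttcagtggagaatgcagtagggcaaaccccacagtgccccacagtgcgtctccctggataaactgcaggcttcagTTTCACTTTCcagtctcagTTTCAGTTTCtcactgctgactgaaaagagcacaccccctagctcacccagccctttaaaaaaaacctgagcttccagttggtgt

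In Cxcl1 and Cxcl2 the capitals hold 2 overlapping matches to the kB letters, 1 on each strand, and the nearest begins 70 and 96 bases before the start. Cxcl10 holds the interferon element letters 213 bases and the kB letters 159 bases before its start. Nfkbia holds the kB letters 29 bases before its start, and Ifit1 has 2 matches to the interferon element letters, the nearer 85 bases before its start. The kB letters were present in 397 of 32851 promoters of this length (1.21%) and the interferon element letters in 978 (2.98%). Of 35 members with a RefSeq promoter, 7 held the kB letters (Cxcl1, Cxcl2, Cxcl10, Il6, Nfkb2, Nfkbia and B2m) and 4 the interferon element letters (Ifit1, Ifit3, Cxcl10 and B2m). Among 4 NF-kB feedback and target genes with a promoter, Nfkbia alone held the kB letters, and Icam1, Birc3 and Tnfaip3 did not. Of 10 members higher in replicate 1, described below, 8 had a promoter and 4 of these held the kB letters. A match describes the letters only.

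Of the 5 NF-kB feedback and target genes, 4 were higher in replicate 1 past the threshold. Icam1 had a log2 ratio of 1.98 ± 0.30 (edgeR adjusted p = 9.86e-09) and Birc3 of 1.71 ± 0.29 (edgeR adjusted p = 4.33e-07), with the levels given above. Tnfaip3 was at 19.7 and 7.34 CPM in high-glucose replicates 1 and 2, against 23.5 and 9.78 CPM in low-glucose replicates 1 and 2 (log2 ratio 1.34 ± 0.29, edgeR adjusted p = 0.000281). Nfkbiz was at 41.8 and 25.2 CPM, against 47.7 and 17.4 CPM (log2 ratio 1.09 ± 0.28, edgeR adjusted p = 0.00400). In each of these genes the replicate 1 libraries lay above the replicate 2 libraries. Socs3 (log2 ratio 1.46 ± 0.28, edgeR adjusted p = 2.84e-05) and Nfkb2 (0.91 ± 0.28, edgeR adjusted p = 0.0285) were the remaining 2. Nfkbia, at 59.5 and 41.0 CPM at high glucose against 79.6 and 42.9 CPM at low glucose, had a log2 ratio of 0.71 ± 0.28 and did not pass (edgeR adjusted p = 0.155).

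Class II genes ran the other way. Cd74, with its levels above, had a log2 ratio of replicate 1 over replicate 2 of -1.09 ± 0.28 (edgeR adjusted p = 0.00421), and H2-Eb1 of -1.26 ± 0.30 (edgeR adjusted p = 0.00135). H2-Aa was at 7.27 and 21.9 CPM in high-glucose replicates 1 and 2, against 9.44 and 17.6 CPM in low-glucose replicates 1 and 2 (log2 ratio -1.24 ± 0.29, edgeR adjusted p = 0.00121). H2-Ab1 was at 11.5 and 24.8 CPM, against 11.8 and 17.9 CPM (log2 ratio -0.86 ± 0.29, edgeR adjusted p = 0.0581). All 4 class II genes had both replicate 1 libraries below both replicate 2 libraries. Summed, they stood at 58.4 and 154.5 CPM at high glucose, against 61.4 and 105.5 CPM at low glucose.

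Macrophage markers were mixed in this comparison. C1qb, with its levels above, had a log2 ratio of -1.21 ± 0.36 (edgeR adjusted p = 0.0181) and was the only marker called. Tyrobp was at 1.36 and 4.01 CPM at high glucose, against 1.01 and 2.42 CPM at low glucose (log2 ratio -1.42 ± 0.47, edgeR adjusted p = 0.0560). Cd68 was at 8.13 and 17.7 CPM, against 8.04 and 12.2 CPM (log2 ratio -0.86 ± 0.30, edgeR adjusted p = 0.0724). Both of these had replicate 1 below replicate 2 at either glucose level. Adgre1 was at 3.23 and 3.95 CPM, against 4.08 and 3.33 CPM, and Csf1r at 4.45 and 5.19 CPM, against 4.36 and 5.27 CPM, so these macrophage receptors were nearly level over the 4 libraries. Mrc1 had both replicate 1 libraries above both replicate 2 libraries.

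Counted by order alone, 18 of 25 inducible members had both replicate 1 libraries above both replicate 2 libraries, against 19.4% of all tested genes, and 0 had both below. The reverse order was found in 6 of 13 tested macrophage markers and 4 of 4 class II genes, against 15.1% of all tested genes. The median log2 ratio of replicate 1 over replicate 2 was 0.98 for inducible members, 1.35 for cytokines and chemokines, 1.34 for NF-kB feedback and target genes, 0.26 for interferon genes, 0.38 for class I genes, -0.19 for macrophage markers and -1.17 for class II genes, and 0.04 over all tested genes. Within high glucose these medians were 0.73 for inducible members and -1.48 for class II genes, and within low glucose 1.06 and -0.79. The sign was therefore the same at both glucose levels, and the difference between the levels was not tested.

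**Figure D3:**
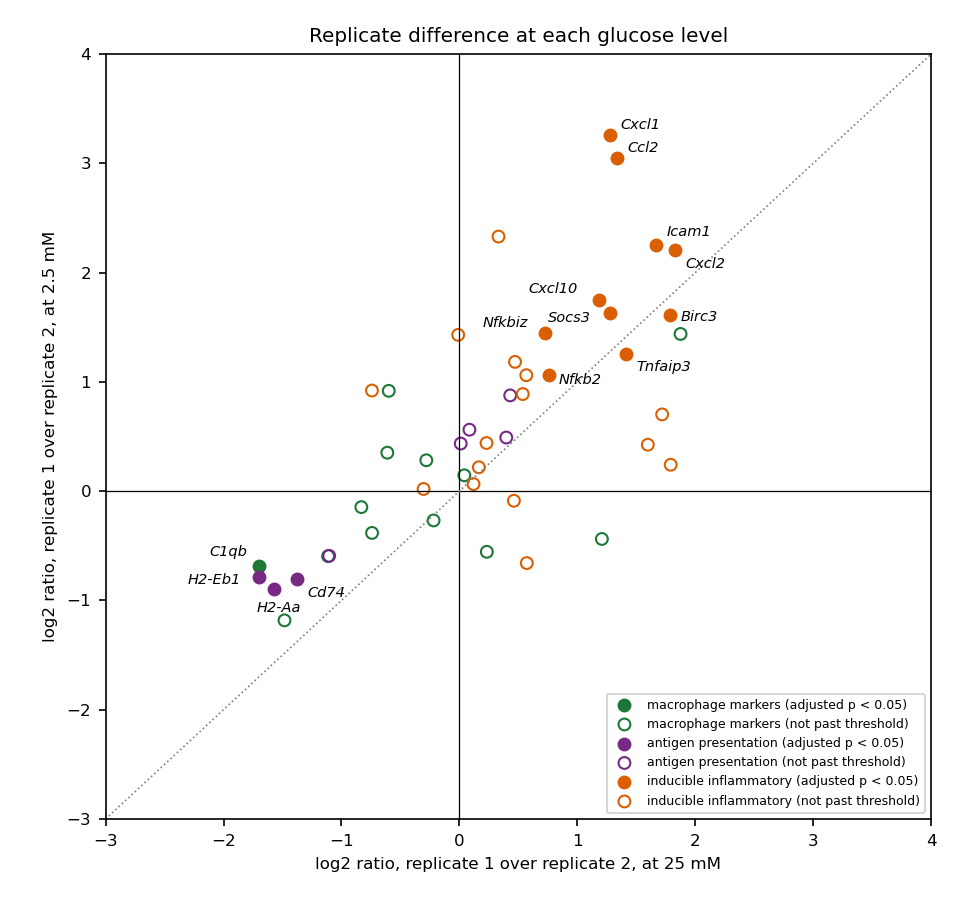
Log2 ratio of replicate 1 over replicate 2 of each tested member at 25 mM (horizontal axis) and at 2.5 mM glucose (vertical axis), from log2 CPM with a prior count of 2. Filled points passed the adjusted p of 0.05 in the replicate comparison. The 10 filled inducible members lie in the upper right and the 4 filled class II and C1qb points in the lower left. The dotted line marks equal ratios.

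**Figure D4:**
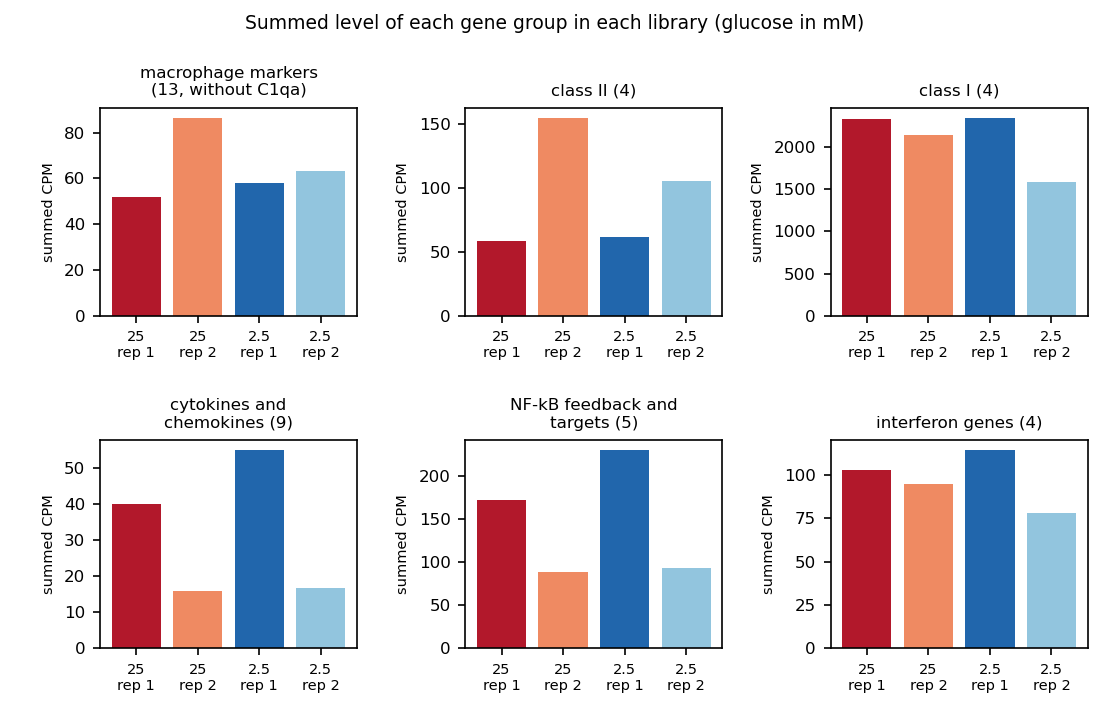
Summed CPM of 6 groups of members in each library, bars from 0. Cytokines and chemokines are higher in both replicate 1 libraries (40.0 at high and 55.0 at low glucose) than in the replicate 2 libraries (16.0 and 16.8), while class II sums are lower there (58.4 and 61.4, against 154.5 and 105.5).

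Stromal, endothelial and part of the endocrine markers moved with the replicate number in a shared direction. Acinar and ductal markers shared no direction, although single genes of both lists were called. All 7 stromal markers were higher in both replicate 1 libraries, and their sum was 480 and 119 CPM in high-glucose replicates 1 and 2, against 517 and 89.6 CPM in low-glucose replicates 1 and 2. The collagen genes Col1a1, Col1a2 and Col3a1, with log2 ratios of 2.60, 2.60 and 2.68, and Dcn were the 4 past the threshold. All 7 tested endothelial markers were lower in both replicate 1 libraries, 5 of them past the threshold, and the 8 summed to 71.8 and 190.3 CPM at high glucose, against 63.4 and 199.5 CPM at low glucose. Of 10 endocrine markers, 4 were lower in replicate 1 past the threshold and 0 higher. Among all tested genes, 3.94% were called higher and 0.677% lower in replicate 1. By order alone, 19.4% of them had both replicate 1 libraries above both replicate 2 libraries, and 15.1% had both below. The 8 acinar markers summed to 618 and 233 CPM at high glucose, against 259 and 295 CPM at low glucose, with 2 called higher and 1 lower in replicate 1. The 4 tested ductal markers had a median log2 ratio of -0.03, with 1 called higher and 0 lower. The 6 dendritic cell markers summed to 1.06 and 2.03 CPM at high glucose, against 0.949 and 1.67 CPM at low glucose, and the 1 tested was not called. The part of stromal, endothelial and endocrine cells in the replicate difference of the members was not tested.

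Genes of the wider pathways were called in the replicate comparison as well. Over all tested genes 3.94% were higher and 0.677% lower in replicate 1. Of 38 other NF-kB genes 5 were higher and 0 lower in replicate 1, of 39 other interferon and JAK-STAT genes 3 were higher and 0 lower, of 24 other macrophage genes 4 were higher and 2 lower, and of 16 other antigen presentation genes 1 was higher. Nos2 and Ptgs2, the inducible enzymes of nitric oxide and prostaglandin synthesis, were picked out after their values were seen. Nos2 was at 6.47 and 0.790 CPM in high-glucose replicates 1 and 2, against 7.43 and 1.02 CPM in low-glucose replicates 1 and 2 (log2 ratio 2.93 ± 0.43, edgeR adjusted p = 2.26e-09). Ptgs2 was at 14.6 and 2.93 CPM, against 15.1 and 1.99 CPM (log2 ratio 2.61 ± 0.34, edgeR adjusted p = 1.21e-11). Both had replicate 1 far above replicate 2 and nearly equal levels at the 2 glucose concentrations, as the blocked log2 fold changes of -0.26 and 0.21 show.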

How the data were processed

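RNA was measured in 4 libraries, 2 at 25 mM and 2 at 2.5 mM glucose. Per the labels and methods, the authors used fastp for read cleaning, HISAT2 2.2.1 for alignment and featureCounts for gene counts, and the deposited values are raw read counts with exonic lengths. The labels name mm10, but of 52088 genes shared with GENCODE vM21 only 1500 had the same start, and 0 of the 47 members, so positions from the table are printed without a build. Strand use and multi-mapping are not given in the sources used here, so paralogs and overlapping genes are uncertain.

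Totals were 18602778 and 19136068 counts at 25 mM and 17279505 and 19087526 at 2.5 mM. A two-sided quasi-likelihood F test (edgeR 4.0.16 under R 4.3.3, TMM scaling, filterByExpr) was fitted to the counts, with Benjamini-Hochberg adjustment over all 15665 tested genes and a threshold of 0.05. The SE is the log2 fold change divided by the square root of F. The replicate block, DESeq2 1.42.0, limma-voom (limma 3.58.1), other scalings, no filter, removal of a loess trend (span 0.5) with gene length and leaving out each library were alternatives. According to the methods, every mouse gave islets to both glucose levels. The labels carry repeat numbers, yet no source states that these pair the RNA libraries. Same-numbered libraries shared deviations (r = 0.409 across genes), and the number was read as a pairing by inference. With 2 libraries a group, the opposite pairing gives the same r with its sign reversed, so this value cannot show that libraries share mice. Blocking lowered the biological coefficient of variation to 20.4%, against 27.7% unblocked. CPM per kb divides by exonic length. Promoters came from RefSeq (GRCm38.p6).

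Members and lists were chosen with earlier results of these data known. Every member is described. Full statistics went to members past the adjusted threshold (with or without the block) or the study's thresholds, and to the 2 members with the largest absolute log2 fold change in each role. Other pathway genes were named for glucose only if they passed the adjusted threshold. Replicate differences were added later. The B cell marker list is not reported here.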

Additional observations from a re-analysis of the deposited data

How the results depend on the processing

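With the replicate block 1 member (Il1b) passed the adjusted threshold, and when the length trend was also taken out 2 did (Il1b, adjusted p = 0.00298, and Birc3, adjusted p = 0.0210), where the unblocked edgeR fit called 0. DESeq2, limma-voom, other scalings, no filter and the length trend alone also gave 0. Leaving out 1 library gave 0 to 3, the 3 being Cd74 (0.95), Il1b (-2.05) and Il1r1 (-0.83) without high-glucose replicate 1, a fit with a lone high-glucose library that called 3253 of all genes (20.0%). The other 3 such fits called 5 to 54 genes. Members past the study's thresholds numbered 1 in the unblocked edgeR fit, where 9.95% of all genes were past them. They numbered 4 with the block, 3 without the filter and 3 for the block plus length correction. With DESeq2, RLE factors, library size only or the length trend removed they numbered 0. The share of all genes past these thresholds in the other settings is not given here, so these counts have no background to be read against. The median of macrophage markers was -0.10 with the length trend removed, with or without the block, and ran from -0.27 to 0.41 when 1 library was left out, that of inducible members from -0.58 to 0.46 and that of antigen presentation genes from -0.08 to 0.44. The causes were not tested. Of 204 alternative values of the 17 members described in full, 15 changed sign, in 11 members, and all 15 came from fits that left out 1 library. Of the 14 members called between replicate numbers, 14 were kept with the length trend removed, RLE factors or limma-voom. With library size only 13 were kept, and 9 with DESeq2, which called 9. Removing the length trend called 20 members, adding B2m, Relb, Nfkbia, Cd68, Tyrobp and H2-Ab1, in a fit that called 1023 of all genes. RLE factors called 16 members, adding Tyrobp and H2-Ab1, and 681 of all genes. With 2 libraries a group the spread rests on few values, and members under 1 CPM rest on few reads.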
